A study of Mus musculus with 30 samples.

Results

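Interferon-stimulated genes were followed by RNAseq in the ventral prostate (VP) of male C57BL/6 mice. The module was a list of 39 genes given by symbol, and all 39 were found among the 39179 Ensembl gene identifiers of the count tables. From weaning the mice ate a normolipidic diet whose only fat source was linseed oil (LO group), soybean oil (SO group) or lard ("Por Fat" in the labels, PF group). They stayed on it for 12 or 32 weeks. There were 5 mice in each of the 6 groups, 30 mice in all. The groups shared the strain, the sex and the tissue and differed in the fat source and the time on it, and no group carried a mutation or received a drug. No group on a standard chow was analysed here, so the diets were compared with each other. Mice at 32 weeks were also older than mice at 12 weeks, and age and time on a diet cannot be told apart.

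Interferons are secreted proteins that cells release when they sense foreign or misplaced nucleic acid. Type I and type III interferons act through receptors and JAK kinases to assemble a complex that contains STAT2 and IRF9 and binds the interferon-stimulated response element (ISRE) in the promoters of target genes. Interferon gamma, a product of T and NK cells, acts on promoters through the gamma-activated sequence (GAS). The targets include transcription factors that amplify the response, sensors of viral RNA and DNA, enzymes and binding proteins that block viral replication, and the large GTPases that attack intracellular parasites. Epithelial cells, stromal cells and leukocytes can all express them. RNA from whole tissue was measured, so a lower proportion of a cell type and less RNA per cell of that type cannot be told apart.

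The libraries held 27590631 to 41301707 read pairs assigned to genes, and the members had median counts from 51 (Oas3) to 4046 (Stat2). Markers matched the labelled tissue, since Sbp, a major secreted protein of the VP, had a median of 250300 TPM (counts scaled for transcript length and library total), and 4 seminal vesicle secretion genes (Svs2, Svs4, Svs5 and Pate4) had a median of 0 TPM. The adipocyte markers Adipoq (2.27 to 154 TPM) and Cidec (0.778 to 102.5 TPM) varied widely between mice, and their part in the results was not tested. Read pairs without a feature were between 6.67% (PF mouse 1 at 32 weeks) and 12.22% of all pairs. Mouse 4 of LO at 12 weeks and mouse 1 of PF at 32 weeks stood apart from their groups for most members, and fold changes and correlations that include them are also given without them.

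The members covered a wide range of levels. Per length, Bst2 had the highest median (75 TPM over 30 mice), followed by Stat2 (45.6 TPM), Ifi35 (39.5 TPM), Isg20 (34.6 TPM) and Ifit1 (30.3 TPM). Bst2 encodes tetherin, which holds budding virions at the cell surface, and Isg20 encodes a nuclease that degrades RNA. The median lay above 10 TPM for 23 members, between 1 and 10 TPM for 15 and below 1 TPM for Oas3 alone (0.430 TPM), a synthetase of the 2'-5' oligoadenylates that activate RNase L. Between the lowest and the highest of the 30 mice the level of a member differed by a median of 7.59 times. Oas3 (103 times) and Oas2 (54.7 times) varied most and Irf1 (1.92 times), Irf8 (2.54 times) and Ifi35 (2.72 times) least. Irf1 and Irf8 encode transcription factors, the latter a factor of myeloid and B cells.

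The promoters of the members were read to show what they share in sequence. RefSeq windows on GRCm38.p6, from 250 bases before to 50 bases after the start of transcription, were at hand for 30 of the 39 members. The ISRE letters, taken as GAAA, any 2 bases and GAAA again and searched on both strands, were found in the windows of 18 of these 30 members (60%), and in 3.99% of the 27025 genes with a window. The GAS letters TTCNNNGAA, a palindrome, were found in 10 of 30 members (33.3%), and in 9.55% of all genes. The 7 stretches that follow are each 180 bases that end between 1 and 19 bases before the start of transcription, written 5′ to 3′ in the sense of the gene, with the motif in capitals. Isg15 and Ifit3 are shown as classical targets, Oas3 and Trim30a as members that changed with time in SO mice, Rsad2 as 1 of the members that stood apart in a PF mouse, Gbp3 for the guanylate-binding proteins and Irf1 as a promoter with a GAS and no ISRE match.
Isg15, chr4:156200819-156200998, minus strand: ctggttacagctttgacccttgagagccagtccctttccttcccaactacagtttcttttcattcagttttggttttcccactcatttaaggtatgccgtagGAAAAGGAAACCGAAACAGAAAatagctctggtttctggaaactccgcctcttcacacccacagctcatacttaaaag
Ifit3, chr19:34583349-34583528, plus strand: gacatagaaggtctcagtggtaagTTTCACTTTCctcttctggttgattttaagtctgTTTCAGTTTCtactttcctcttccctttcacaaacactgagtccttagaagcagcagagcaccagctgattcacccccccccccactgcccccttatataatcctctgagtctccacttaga
Oas3, chr5:120777662-120777841, minus strand: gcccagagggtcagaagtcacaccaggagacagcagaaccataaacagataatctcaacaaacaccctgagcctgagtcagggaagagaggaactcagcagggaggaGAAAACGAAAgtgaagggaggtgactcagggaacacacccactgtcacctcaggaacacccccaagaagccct
Trim30a, chr7:104465194-104465373, minus strand: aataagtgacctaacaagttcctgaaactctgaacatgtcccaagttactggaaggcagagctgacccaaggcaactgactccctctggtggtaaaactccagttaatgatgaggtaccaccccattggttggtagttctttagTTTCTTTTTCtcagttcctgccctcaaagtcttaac
Rsad2, chr12:26456453-26456632, minus strand: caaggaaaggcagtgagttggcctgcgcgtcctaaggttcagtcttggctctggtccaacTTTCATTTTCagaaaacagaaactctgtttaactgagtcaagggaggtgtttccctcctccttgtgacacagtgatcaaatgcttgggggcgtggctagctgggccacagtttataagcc
Gbp3, chr3:142559846-142560025, plus strand: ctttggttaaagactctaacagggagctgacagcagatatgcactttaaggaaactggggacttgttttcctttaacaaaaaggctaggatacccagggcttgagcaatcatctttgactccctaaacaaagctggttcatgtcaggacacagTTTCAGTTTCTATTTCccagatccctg
Irf1, chr11:53769834-53770013, plus strand: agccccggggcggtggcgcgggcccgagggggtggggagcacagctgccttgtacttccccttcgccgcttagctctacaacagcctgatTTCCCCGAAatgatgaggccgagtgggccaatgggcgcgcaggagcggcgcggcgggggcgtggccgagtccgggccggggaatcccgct

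Counted from the start of transcription, the 3 matches of Isg15 began at -78, -72 and -66 and overlapped, and the 2 matches of Gbp3 overlapped as well. The matches of Ifit3 began at -156 and -122, that of Oas3 at -75, that of Rsad2 at -120, that of Trim30a at -36 and the GAS match of Irf1 at -90. A match is a description of the letters and not a measured site. The windows of 7 members, among them Irf7 and Xaf1, held neither motif, which says only that these letters are not in those windows.

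The mean log2 CPM (counts scaled by the TMM-adjusted library total) over the 39 members, taken as a score for each mouse, lay between 3.08 and 5.75. By group the score was 4.12 ± 0.93 (SD, n = 5) in LO, 3.51 ± 0.44 in SO and 4.50 ± 0.69 in PF mice at 12 weeks. At 32 weeks it was 4.49 ± 0.62 in LO, 4.83 ± 0.51 in SO and 4.17 ± 0.41 in PF mice. SO mice thus had the lowest mean of the 6 groups at 12 weeks and the highest at 32 weeks. In SO mice every score at 32 weeks (4.30 to 5.50) was above every score at 12 weeks (3.08 to 4.13), while the ranges of the other groups overlapped.

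**Figure D1:**
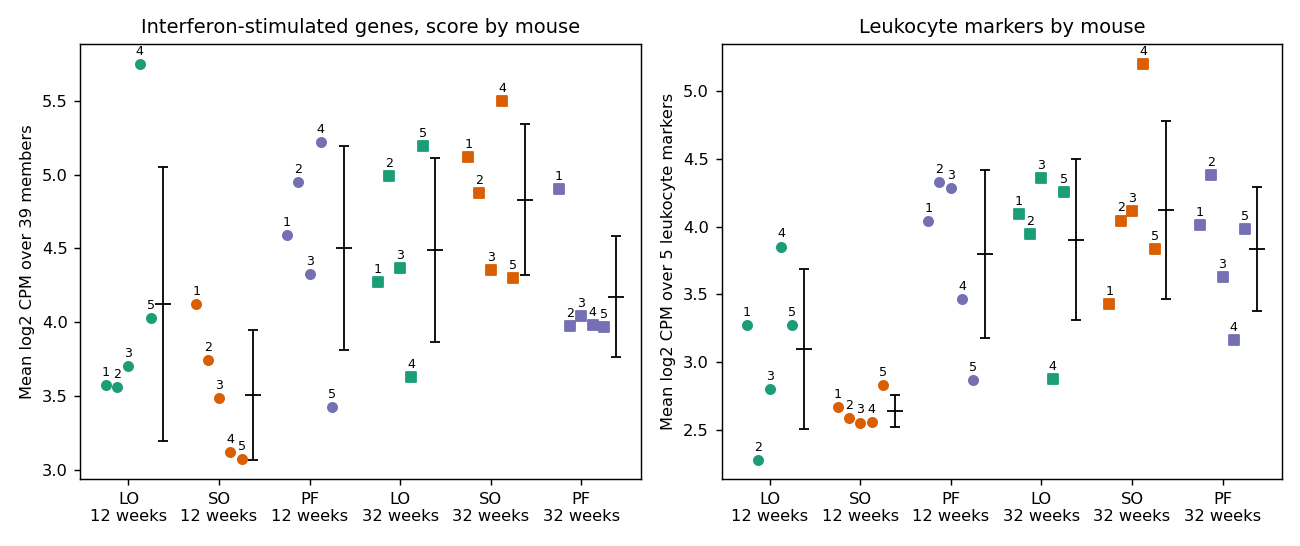
The left panel plots the mean log2 CPM over the 39 members and the right panel the mean log2 CPM over 5 leukocyte markers, 1 point per mouse, with the mouse number above it, by diet and weeks. The bar is the mean and the whisker the SD of 5 mice; the score of LO mouse 4 at 12 weeks (5.75) is the highest of all, and SO mice at 32 weeks lie above SO mice at 12 weeks in both panels.

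Single mice carried much of the spread. Mouse 4 of LO at 12 weeks had the highest level of all 30 mice for 20 members and was above the other 4 mice of its group for 37 members. Its ratio to the median of those 4 mice was 3.90 as a median over members and reached 31.3 for Oas3. Without it, the LO score at 12 weeks was 3.72 ± 0.22 (n = 4). Mouse 1 of PF at 32 weeks was above the other 4 for 34 members, and without it the PF score at 32 weeks was 3.99 ± 0.035 (n = 4). For these counts, and for those of single mice in the next paragraph, the share over all genes is not given here.

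Mouse 4 of PF at 12 weeks had the highest level of all mice for 10 members and mouse 4 of SO at 32 weeks for 6. Mouse 5 of PF at 12 weeks was the opposite case and was below the other 4 for 37 members, with a score of 3.42 against 4.77 ± 0.39 (n = 4). Mice 4 and 5 of SO at 12 weeks held the lowest level of all mice for 34 members.

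**Figure D2:**
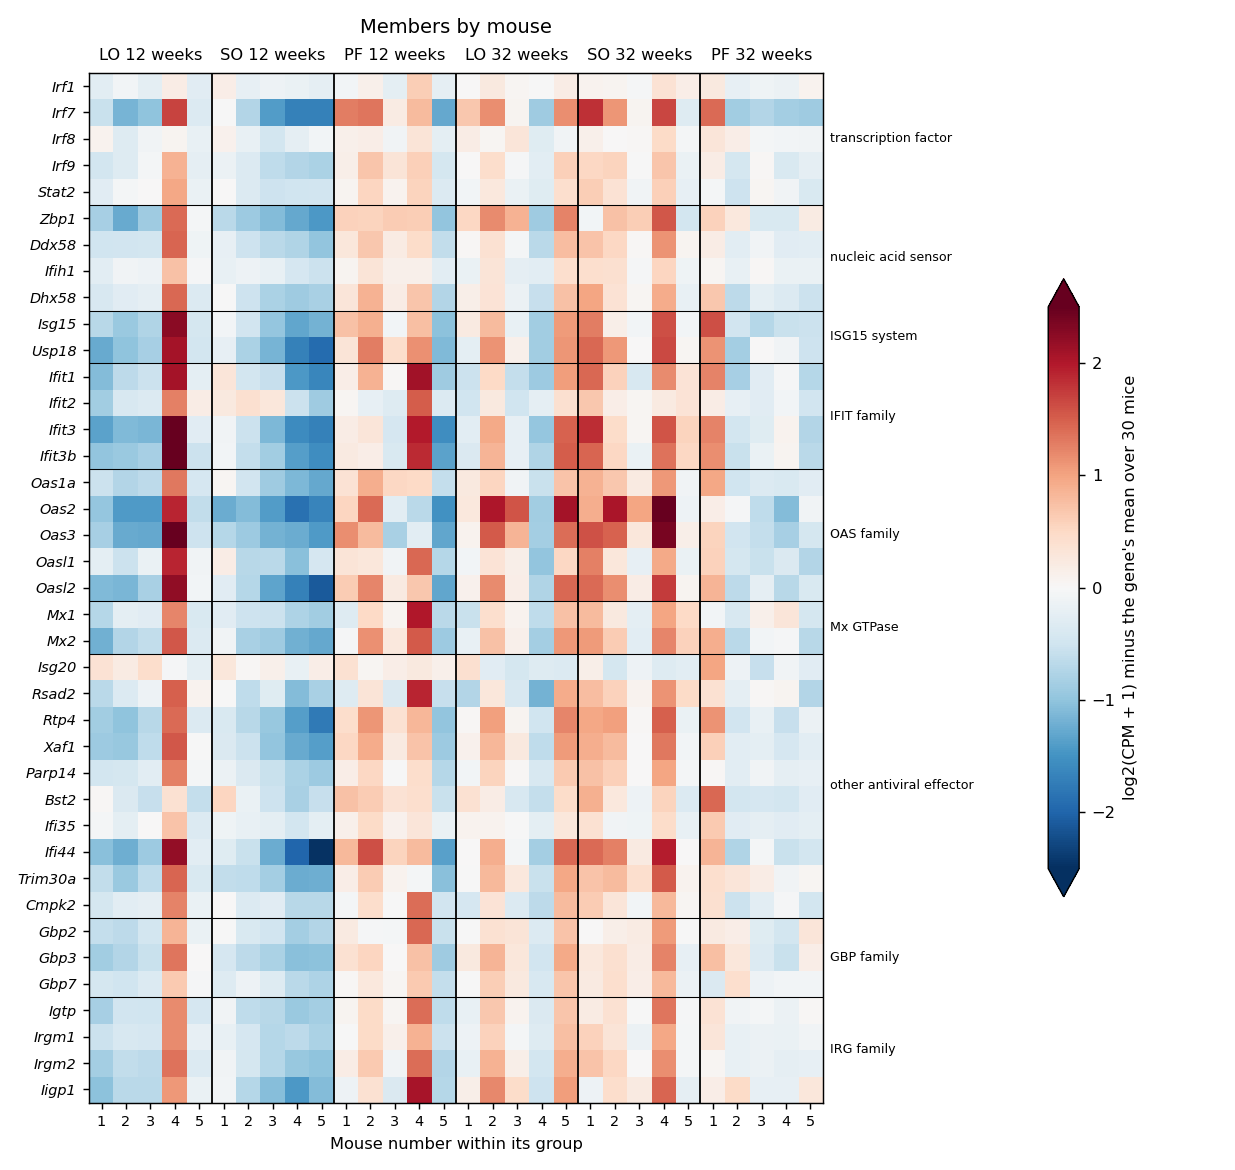
Each row is a member, grouped by role, and each column a mouse; colour gives log2(CPM + 1) minus the gene's mean over 30 mice, with the scale ending at 2.5 in either direction. The column of LO mouse 4 at 12 weeks is red in nearly every row, the columns of SO mice 3, 4 and 5 at 12 weeks are blue in most rows, and Irf8 and Irf1 stay pale.

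The largest change was found in SO mice between 12 and 32 weeks. Of the 39 members, 16 were higher at 32 weeks and 0 were lower at an adjusted p under 0.05 in edgeR's quasi-likelihood test with Benjamini-Hochberg adjustment. Over all 16605 genes tested, 5.25% were called higher and 1.22% lower. The members' median log2 fold change was 1.23, against -0.0044 over all genes, and 38 of 39 members had a positive value, as did 49.2% of all genes. At an unadjusted p under 0.05, 34 members were higher, where 12.6% of all genes were. For 19 members all 5 mice at 32 weeks were above all 5 mice at 12 weeks, which held for 5.12% of all genes. The share of members called was above the share over all genes.

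Of the 5 oligoadenylate synthetase genes 4 were called, and Oas2 and Oas3 had the largest log2 fold changes of the 39 members. Oas2 was at 3.65, 4.18, 3.19, 2.02 and 2.53 CPM in SO mice 1 to 5 at 12 weeks and at 19.6, 44.5, 20.9, 91.6 and 9.15 CPM at 32 weeks. The groups did not overlap, and mouse 4 at 32 weeks was the highest. The log2 fold change was 3.58 (SE 0.77, adjusted p = 0.00755), and it was the only member called whichever of the 10 mice was left out.

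Oas3 was at 0.233 to 1.01 CPM at 12 weeks and at 9.02, 8.24, 3.03, 16.2 and 2.68 CPM at 32 weeks. Its groups did not overlap either, and its log2 fold change was 3.77 (SE 0.99, adjusted p = 0.0219). Oasl2, which binds double-stranded RNA, rose by 2.18 (adjusted p = 0.0290) and Oas1a by 1.35 (adjusted p = 0.0422) on the log2 scale. Oasl1, a translational repressor of Irf7, had a log2 fold change of 1.25 that was not called (adjusted p = 0.17).

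Among the transcription factors, Irf7 and Irf9 were called and Stat2, Irf1 and Irf8 were not. Irf7, the factor that amplifies type I interferon production, was at 42.5, 25.7, 15.8, 12.7 and 12.6 CPM in SO mice 1 to 5 at 12 weeks and at 155, 93.7, 45.0, 139 and 34.1 CPM at 32 weeks. Mouse 5 at 32 weeks was below mouse 1 at 12 weeks, so the groups overlapped. The log2 fold change of Irf7 was 2.10 (SE 0.63, adjusted p = 0.0428).

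Irf9, the DNA-binding part of the ISRE complex, was at 65.4, 57.3, 46.6, 43.4 and 41.6 CPM at 12 weeks and at 105, 108, 72.9, 119 and 65.3 CPM at 32 weeks. It overlapped only through mouse 1 at 12 weeks and mouse 5 at 32 weeks, and rose by 0.88 on the log2 scale (standard error 0.24, adjusted p = 0.0257). Stat2, its partner, had a log2 fold change of 0.65 (adjusted p = 0.0693) and Irf1 one of 0.25 (adjusted p = 0.316). Irf8 was at 0.30 on the same scale (adjusted p = 0.201).

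The nucleic acid sensors were called in 3 of 4 cases. Zbp1, a sensor of Z-form nucleic acid that can start cell death, was at 0.756 to 1.98 CPM at 12 weeks and at 3.54, 6.87, 6.25, 13.0 and 2.47 CPM at 32 weeks, without overlap. Its log2 fold change was 2.31 (SE 0.59, adjusted p = 0.0191). Ddx58, which encodes the RNA sensor RIG-I, rose by 1.19 (adjusted p = 0.0293) and Ifih1, which encodes MDA5, by 0.56 (adjusted p = 0.0435) on the log2 scale. Ifih1 was at 37.0 to 49.3 CPM at 12 weeks and at 50.1 to 79.0 CPM at 32 weeks, a narrow gap without overlap. Dhx58, a regulator of the other two sensors, had a log2 fold change of 1.14 (adjusted p = 0.0654).

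Of the 10 other antiviral effectors, 5 were called. Trim30a, a ubiquitin ligase of the tripartite motif family, was at 11.7, 11.6, 9.84, 7.26 and 7.38 CPM at 12 weeks and at 31.1, 32.7, 25, 55.6 and 19.8 CPM at 32 weeks. All mice at 32 weeks were above all mice at 12 weeks, and the log2 fold change was 1.78 (SE 0.40, adjusted p = 0.00953). Rtp4, Xaf1, Ifi44 and Parp14 rose as well, by 1.85, 1.65, 2.38 and 1.05 on the log2 scale (adjusted p = 0.0258, 0.0279, 0.0326 and 0.0279). Parp14 transfers ADP-ribose to proteins and Xaf1 promotes apoptosis.

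Rsad2, the radical enzyme viperin, was at 9.16 to 20.6 CPM at 12 weeks and at 22 to 45.9 CPM at 32 weeks. These ranges did not overlap, but its log2 fold change of 1.23 was not called (standard error 0.46, adjusted p = 0.117). Bst2 (log2 fold change 0.55, adjusted p = 0.423) and Ifi35 (0.37, adjusted p = 0.295) were not called, and Isg20 was the only member with a negative value (−0.29, adjusted p = 0.477). Cmpk2, a nucleotide kinase next to Rsad2, had a log2 fold change of 0.80 (adjusted p = 0.197).

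In the ISG15 system, Usp18, the protease that removes ISG15 and damps interferon receptor signalling, rose by 2.17 on the log2 scale (standard error 0.64, adjusted p = 0.0386). Isg15, the ubiquitin-like protein itself, was at 6.24, 4.43, 2.90, 2.08 and 2.33 CPM at 12 weeks and at 17.4, 7.41, 6.25, 22.1 and 6.20 CPM at 32 weeks. Mouse 5 at 32 weeks was just below mouse 1 at 12 weeks, and the log2 fold change of 1.72 was not called (standard error 0.67, adjusted p = 0.13).

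None of the 4 IFIT genes, which bind foreign RNA ends and restrain translation, was called. Ifit1 was at 13.3 to 53.6 CPM at 12 weeks and at 32.5 to 120 CPM at 32 weeks, with a log2 fold change of 1.39 (adjusted p = 0.196). Ifit3 did not overlap between the times and had a log2 fold change of 2.02 (adjusted p = 0.13), Ifit3b one of 1.91 (adjusted p = 0.139) and Ifit2 one of 0.33 (adjusted p = 0.668). Ifit3 and Ifit3b are near-identical copies, and pairs that aligned to both were set aside in the counting, so their levels are uncertain.

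Mx1, of the Mx GTPase genes, was at 12.2 to 18.9 CPM at 12 weeks and at 19.3 to 46.5 CPM at 32 weeks, without overlap. It was not called (log2 fold change 1.15, adjusted p = 0.0995). Its paralog Mx2, annotated as a polymorphic pseudogene, had a log2 fold change of 1.77 (adjusted p = 0.0564).

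The GTPases of cell-autonomous immunity gave 1 call in 7. Among the guanylate-binding proteins, Gbp3 rose by 1.40 on the log2 scale (adjusted p = 0.0412), Gbp7 had a log2 fold change of 0.82 (adjusted p = 0.0541) and Gbp2 one of 0.86 (adjusted p = 0.134). The 4 immunity-related GTPases Igtp, Irgm1, Irgm2 and Iigp1, which act on the vacuoles of parasites, had log2 fold changes from 0.95 to 1.46, with 0 called. Irgm1 was at 22.4 to 34.6 CPM at 12 weeks and at 35.4 to 77.3 CPM at 32 weeks, without overlap. Igtp and Irgm2 overlap on the same strand of chromosome 11, and reads shared by both could not be assigned.

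**Figure D3:**
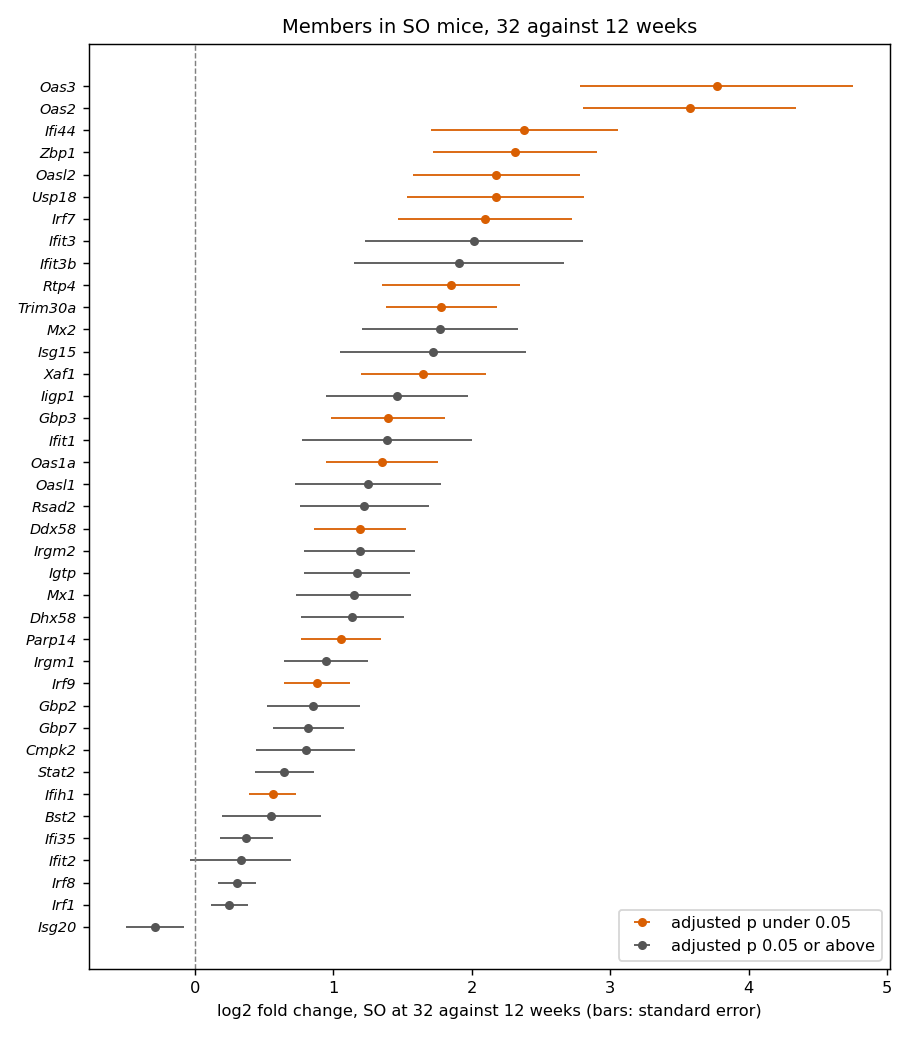
The log2 fold change of each member in SO mice at 32 against 12 weeks is plotted with its standard error, sorted by size, for 5 mice at each time. Oas3 (3.77) and Oas2 (3.58) lie far to the right, the 16 called members are drawn in orange, and Isg20 lies left of 0.

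The number of members called depended on single mice. Without mouse 4 of SO at 32 weeks, 1 member was called (Oas2, log2 fold change 2.91, adjusted p = 0.0442) and the members' median was 1.03. Without mouse 2 at 32 weeks 4 were called, and without mouse 2, 3, 4 or 5 at 12 weeks 10, 3, 2 and 2. The median over the members stayed between 1.03 and 1.39 in these 10 fits, and Trim30a was called in 9 of them, Zbp1 in 7 and Oas3 in 6. The share of all genes called higher in these fits was between 1.09% (without mouse 4 at 32 weeks) and 6.76%. With only the 10 SO mice in the fit 30 members were called, where 5.43% of all genes were called higher. The Wald test of DESeq2, which was used for the comparisons of the study, called 24, where it called 6.16% of all genes higher.

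Markers of leukocytes moved with this result. All 5 pan-leukocyte markers (Ptprc, Cd52, Cd53, Laptm5 and Coro1a) were called higher in SO mice at 32 weeks. So were 4 of 8 macrophage, 6 of 6 T cell, 3 of 3 NK cell and 3 of 3 B cell markers, where 5.25% of all genes were. Markers of plasmacytoid dendritic cells, neutrophils, adipocytes, fibroblasts, smooth muscle and endothelium are not given for this comparison. The summed level of the 5 leukocyte markers was 32.9 to 40.2 CPM at 12 weeks and 59.7 to 196 CPM at 32 weeks. Mouse 4 at 32 weeks had the highest leukocyte sum of its group (196 CPM) and also its highest score. Mouse 1 at 32 weeks had the lowest leukocyte sum of its group (59.7 CPM) and the second highest score (5.12). Without mouse 4 at 32 weeks, 3 of 5 leukocyte, 0 of 8 macrophage and 3 of 6 T cell markers were called. With all mice, 0 of 5 luminal epithelial markers were called, 1 of 3 VP secretion genes was lower and 1 of 3 basal epithelial markers was higher. The part of these markers in the result was not tested.

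At 12 weeks, all 39 members had a positive log2 fold change in PF against SO mice, as did 44.8% of all genes, and 0 were called by edgeR. The median log2 fold change was 1.12, against -0.01 over all 15873 genes tested, of which 0% were called. At an unadjusted p under 0.05, 29 members were higher, where 6.14% of all genes were. DESeq2 called 0 members too, with the smallest adjusted p at 0.057 for Irf9. It did call genes outside the members, and their count is given in the last section. No member separated all PF from all SO mice, where 1.13% of all genes were higher without overlap.

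Irf7 was at 106, 110, 49.6, 75.3 and 17.2 CPM in PF mice 1 to 5 at 12 weeks, next to 12.6 to 42.5 CPM in SO mice. The first 4 PF mice were above all SO mice and mouse 5 lay within their range. The log2 fold change was 1.72 (SE 0.60, adjusted p = 0.34).

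Zbp1 showed the same layout, with 6.08, 5.96, 6.43, 6.29 and 1.39 CPM in PF mice and 0.756 to 1.98 CPM in SO mice. Its log2 fold change was 2.02 (SE 0.61, adjusted p = 0.246). Irf9 was at 80.7, 118, 91.4, 110 and 53.5 CPM in PF mice and 41.6 to 65.4 CPM in SO mice, with a log2 fold change of 0.84 (standard error 0.26, adjusted p = 0.246). PF mouse 5 was thus again within the SO range.

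Rtp4, a chaperone of receptors that binds nucleic acid in antiviral responses, was at 30.8, 49.2, 29.4, 40.5 and 10.8 CPM in PF mice, with 5.93 to 17.0 CPM in SO mice and a log2 fold change of 1.54 (adjusted p = 0.29). Iigp1 rested on PF mouse 4, with 8.28, 12.2, 6.89, 41.3 and 5.23 CPM in PF and 2.79 to 8.68 CPM in SO mice. Its log2 fold change was 1.61 (adjusted p = 0.373). Without PF mouse 5 the smallest adjusted p among the members was 0.0809, and without PF mouse 4 the members' median was 0.74 and 38 of 39 were above 0.

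By role, the median log2 fold change in PF against SO at 12 weeks was 1.62 for the OAS family, 1.57 for the ISG15 system, 1.49 for the Mx genes, 1.48 for the IFIT genes, 1.12 for the immunity-related GTPases, 0.95 for the sensors, 0.90 for the guanylate-binding proteins and 0.57 for the transcription factors. The pan-leukocyte markers had a median of 1.28 in the same comparison, with 5 of 5 at an unadjusted p under 0.05 and 0 called. Their summed level was 40.1 to 107 CPM in PF mice at 12 weeks, and PF mouse 5, the one with low members, had the lowest. Their part in the difference was not tested.

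LO against SO at 12 weeks gave 0 members called (0% of all genes), a positive value for 38 of 39 (50.6% of all genes) and a median log2 fold change of 0.86. At an unadjusted p under 0.05, 20 members were higher, where 2.52% of all genes were. LO mouse 4 carried this difference. Oas3 was at 0.870, 0.379, 0.360, 19.5 and 1.31 CPM in LO mice 1 to 5, and SO mice were at 0.233 to 1.01 CPM. Only LO mice 4 and 5 were above the SO range, and the log2 fold change of 2.99 was not called (standard error 1.10, adjusted p = 0.999). Without LO mouse 4 the median over the members was 0.19. The summed leukocyte markers were at 77.3 CPM in LO mouse 4 and at 27.7 to 54.6 CPM in the other 4 LO mice, and their part in its levels was not tested.

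PF and LO mice at 12 weeks had a median log2 fold change of 0.20 over the members, with 0 called (0% of all genes) and 0 at an unadjusted p under 0.05, where 4.31% of all genes were higher and 4.93% lower. Without LO mouse 4 the median was 0.90, with 0 called. The smallest adjusted p was that of Bst2 (0.566). Bst2 was at 53.8, 50.1, 41.0, 43.0 and 21.4 CPM in PF mice and at 32.6, 24.6, 21.1, 41.9 and 20.7 CPM in LO mice. The first 2 PF mice and mouse 4 were above all LO mice, and the log2 fold change was 0.57 (SE 0.28). Irf1, Iigp1, Gbp2 and Irf8 followed with adjusted p from 0.733 to 0.751.

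At 32 weeks the order of PF and SO mice was the opposite. Of 39 members, 38 had a negative log2 fold change in PF against SO mice, with a median of −0.60 and 0 called (0% of all 16218 genes). A positive value was found for 49.3% of all genes. At an unadjusted p under 0.05, 11 members were lower, where 5.07% of all genes were. Oas2 was at 11.5, 9.82, 6.08, 4.23 and 9.38 CPM in PF mice and at 9.15 to 91.6 CPM in SO mice. All SO mice but mouse 5 were above all PF mice, and the log2 fold change of Oas2 was −2.15 (SE 0.63, adjusted p = 0.344).

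Oas3 had a log2 fold change of −2.11 (standard error 0.63, adjusted p = 0.349), with 0.852 to 3.87 CPM in PF and 2.68 to 16.2 CPM in SO mice. Parp14 (−0.65), Ddx58 (−0.68) and Ifi44 (−1.24) followed with adjusted p from 0.372 to 0.409. Without mouse 1 of PF, all 39 members had a negative value, with a median of −0.75 and 0 called.

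PF against LO at 32 weeks gave a median of −0.29 over the members, with a positive value for 4 of 39 (51.2% of all genes) and 0 called (0% of all genes). At an unadjusted p under 0.05, 2 members were lower, where 4.12% of all genes were. Without mouse 1 of PF the median was −0.51, with 0 called. The 2 members were Oas2 (log2 fold change −1.74, adjusted p = 0.462) and Oas3 (−1.45, adjusted p = 0.543). LO mice were at 12.2, 43.9, 31.7, 5.03 and 46.0 CPM for Oas2, and 4 of the 5 were above all PF mice. LO against SO at 32 weeks had a median of −0.34, with 0 called (0% of all genes) and 0 at an unadjusted p under 0.05, where 1.5% of all genes were higher and 1.99% lower. Rsad2 had the smallest p, with a log2 fold change of −0.69 (standard error 0.35). Rsad2 was at 12.0, 25.4, 15.4, 8.56 and 40.2 CPM in LO mice and at 22 to 45.9 CPM in SO mice.

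**Figure D4:**
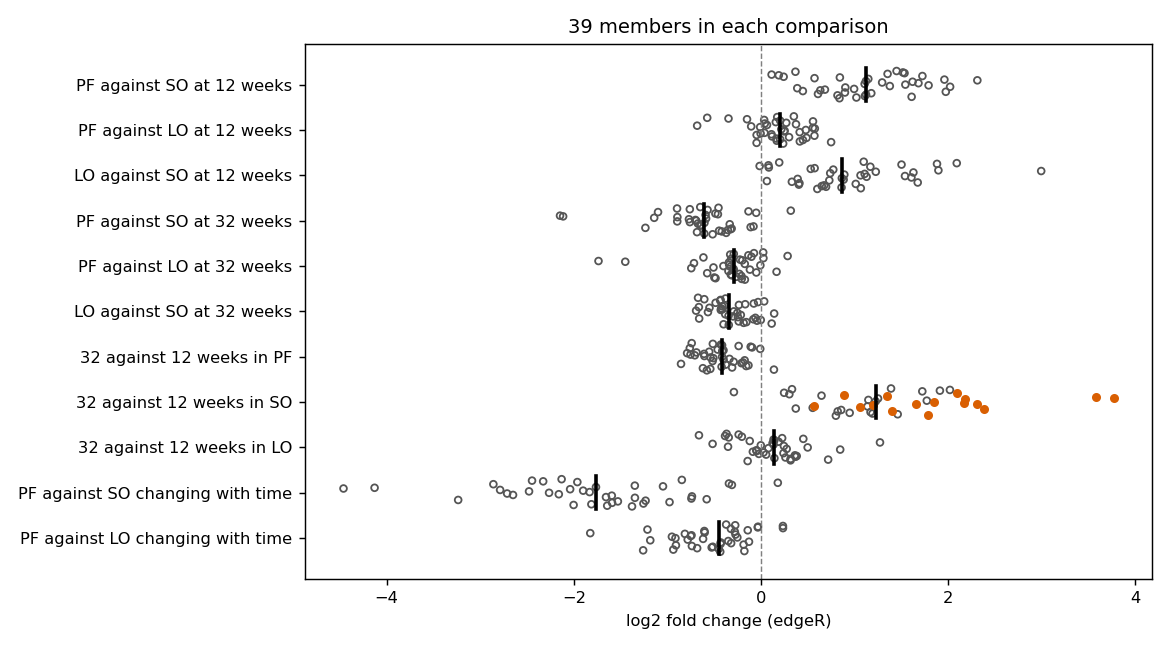
Each point is a member's log2 fold change in one comparison, open where not called and orange where called at an adjusted p under 0.05, and the black line is the median over 39 members. The medians are 1.12 for PF against SO at 12 weeks, −0.60 at 32 weeks and 1.23 for SO at 32 against 12 weeks, the only comparison with called members.

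Between 12 and 32 weeks, PF mice had 0 members called, where 0.0301% of all genes were called. The median log2 fold change was −0.42, with a positive value for 1 of 39 members and for 50.7% of all genes. Irf9 had the smallest adjusted p (0.511). It was at 83.1, 53.9, 74.3, 56.0 and 62.2 CPM at 32 weeks, next to 53.5 to 118 CPM at 12 weeks, and the groups overlapped. Stat2, Mx1, Cmpk2 and Irgm2 followed with log2 fold changes of −0.40, −0.75, −0.58 and −0.62. Stat2 was at 91.9 to 137 CPM at 32 weeks and 104 to 195 CPM at 12 weeks. Without mouse 1 of PF at 32 weeks the median was −0.69, with 0 called.

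LO mice had 0 members called with time, where 2.7% of all genes were called, and a median log2 fold change of 0.13. This value rested on LO mouse 4 at 12 weeks. Without it the median was 0.78, 38 of 39 members had a positive value and 4 were called, namely Oas2 (log2 fold change 2.71, adjusted p = 0.0248), Oas3 (2.76, adjusted p = 0.0403), Zbp1 (1.86, adjusted p = 0.0412) and Trim30a (1.11, adjusted p = 0.0424). In the same fit 3.02% of all genes were called higher. These 4 members were also the 4 with the smallest p in SO mice, which is a description, since the mouse was left out after its values were seen. With all mice, Oas2 had a log2 fold change of 1.27 (standard error 0.69, adjusted p = 0.307). Without mouse 4, LO mice at 12 weeks were at 3.13 to 6.17 CPM for Oas2, and 4 of 5 mice at 32 weeks were above that range.

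The change of the PF and SO difference between the times was tested as an interaction over all 30 mice. By edgeR 0 members were called, and 0% of all genes. The members' median interaction was −1.76 on the log2 scale, and 34 members were at an unadjusted p under 0.05 in the negative direction, where 6.65% of all genes were. Oas2 (−4.13, SE 1.02) and Irf9 (−1.35, SE 0.34) had the smallest adjusted p, both 0.221. DESeq2 called both, at adjusted p of 0.0256 and 0.0374. It also called genes outside the members, and its count over all genes is given in the last section. Without mouse 1 of PF at 32 weeks the median was −1.88, with 0 called by edgeR.

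Ifi44, Stat2 and Ddx58 followed with interactions of −3.24, −1.05 and −1.59 (edgeR adjusted p = 0.237 for each). The same interaction for PF and LO had a median of −0.45 over the members, with 0 called (0% of all genes) and Oas2 first (−1.82, adjusted p = 0.676). Without LO mouse 4 at 12 weeks its median was −1.21, and without mouse 1 of PF at 32 weeks −0.76, with 0 called in both. The comparisons of a diet share mice with each other, so these values are not independent of those given for each time.

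The members varied together from mouse to mouse. After each group's mean was removed, the 741 pairs of members had a median Pearson r of 0.83 over 30 mice (quartiles 0.70 and 0.90), and a median Spearman rho of 0.79. The members against all other tested genes had a median r of −0.01 (quartiles −0.16 and 0.15). All points share libraries and scaling. Without mouse 4 of LO at 12 weeks and mouse 1 of PF at 32 weeks, the pairs of members had a median r of 0.77 and rho of 0.73 over 28 mice. Usp18, Parp14, Xaf1 and Oasl2 had the highest median r with the other members (0.90 to 0.91). Isg20 (0.041) did not vary with them, and Irf8 (0.52), Bst2 (0.66), Irf1 (0.67) and Ifit2 (0.68) did so less than the rest.

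The members correlated less with leukocyte markers than with each other. Over the 195 pairs of a member and a pan-leukocyte marker the median r was 0.46 (quartiles 0.32 and 0.60), and over the 312 pairs with macrophage markers it was 0.15. Without the same 2 mice the median r with leukocyte markers was 0.39. Zbp1 (median r 0.75), Oas2 (0.74) and Trim30a (0.69) were the members closest to the leukocyte markers. Isg20 (-0.033), Ifit2 (0.020), Irf1 (0.13), Mx1 (0.21) and Ifit1 (0.21) had the lowest values.

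The high mice did not all have the same members high. Mouse 4 of PF at 12 weeks had Rsad2 at 79.6 CPM and Mx1 at 94.9 CPM, the highest of all mice, and Oas2 at 5.93 CPM. The ratio of Rsad2 to Oas2 was 13.4 in this mouse and 0.487 to 5.94 in the other 29. Mouse 4 of LO at 12 weeks had both genes high (59.9 and 40.1 CPM), and mouse 4 of SO at 32 weeks had Oas2 highest of all (91.6 CPM) with Rsad2 at 45.9 CPM.

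Against the median of the other 4 PF mice at 12 weeks, PF mouse 4 had Iigp1 5.44 times, Rsad2 4.94 times, Mx1 4.48 times, Ifit3 4.32 times and Ifit1 4.09 times higher. Oas2 (0.513 times), Oas3 (0.627 times) and Trim30a (0.874 times) were lower, and Bst2 and Irf7 were about level (0.944 and 0.966 times). Mx2 was 2.87 times, Igtp 2.64 times, Irgm2 2.59 times and Irgm1 1.76 times the median of the other 4. Its Oas2 level was above that of PF mouse 5 (2.86 CPM) and above the SO mice at 12 weeks (2.02 to 4.18 CPM). The summed leukocyte markers of mouse 4 were at 60.1 CPM, the second lowest of the PF mice at 12 weeks.

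**Figure D5:**
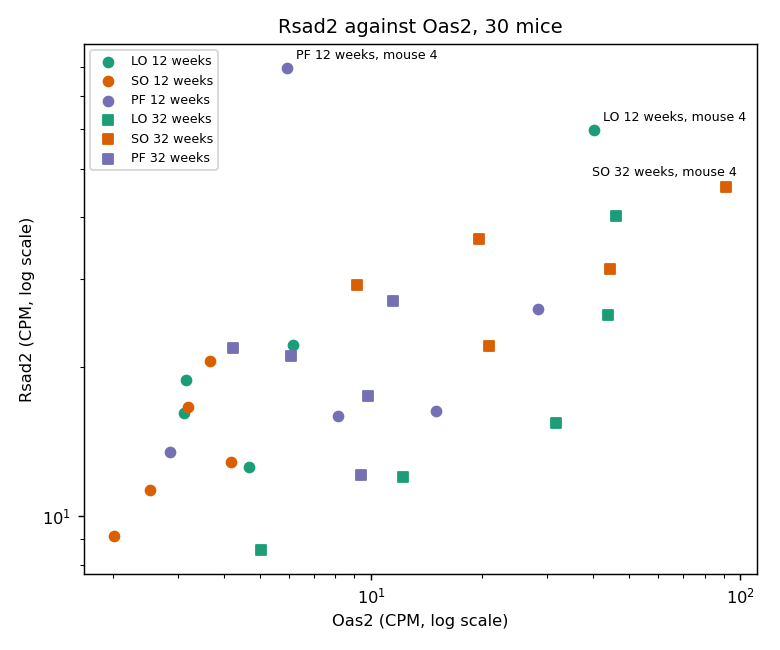
Rsad2 is plotted against Oas2 in CPM, both on log axes, 1 point per mouse, with colours for the diets, circles for 12 weeks and squares for 32 weeks. PF mouse 4 at 12 weeks stands at the upper left (79.6 against 5.93 CPM), away from the other mice.

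Mouse 1 of PF at 32 weeks held another pattern. Isg15 was 5.25 times the median of the other 4 mice (22.1 CPM against 3.61 to 4.48 CPM), Irf7 was at 117 CPM against 22.7 to 25.4 CPM, and Bst2 was the highest of all 30 mice (88.0 CPM). Isg20 was also highest in this mouse (60.4 CPM). Gbp7 was below the other 4 mice (0.801 times their median). The library of this mouse had the lowest share of pairs without a feature (6.67%), and the part of that in these levels was not tested.

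The genes upstream of the members were read from lists of the pathway. Of 21 interferon ligand genes listed, 17 were in the tables, and the 10 interferon alpha genes among them had 0 counts in all 30 mice. Ifnb1 had 5 counts in all and Ifng, the interferon of T and NK cells, had 60 counts spread over 21 mice (at most 10 in a mouse). Ifne, an epithelial type I interferon, was the only ligand tested, with up to 14 counts per mouse and 0.17 as its log2 fold change in SO mice with time (adjusted p = 0.818). A count of 0 in libraries of this size shows only that these RNAs were below detection in whole tissue.

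The 6 receptor genes were all measured, with Ifngr2 (32.7 TPM), Ifngr1 (30 TPM) and Ifnar1 (11.6 TPM) as examples, and 0 were called in SO mice with time (median log2 fold change 0.13).

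Among 12 further sensors and adaptors, 2 rose in SO mice with time, the endosomal receptors Tlr7 (log2 fold change 1.44, adjusted p = 0.0183) and Tlr9 (1.15, adjusted p = 0.0412). Of 5 inhibitors of the pathway, 0 were called, with Socs3 first (0.77, adjusted p = 0.174). Of 49 other genes known to be induced by interferon, 47 were tested and 26 rose, with a median log2 fold change of 1.02. Gbp8 (2.45, adjusted p = 0.00283), Nlrc5, the transactivator of MHC class I genes (1.85, adjusted p = 0.00603), Epsti1 (1.18, adjusted p = 0.0121) and Slfn8 (1.67, adjusted p = 0.0122) had the smallest p. In PF against SO at 12 weeks these 47 genes had a median of 0.71, with 46 above 0 and 0 called.

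The ISRE letters were found in both the called and the other members in SO mice, and their shares were not tested against each other. Of the 16 called members 11 had a promoter window and 6 of these held the letters, and of the 23 others 19 had a window and 12 held them. The GAS letters were in the windows of 1 of these 11 called members and 9 of these 19 others, a difference that was not tested. Called members without a window could not be read for either motif. The 18 members with the ISRE letters had a median log2 fold change of 1.21 and the 12 with a window but without them one of 0.84.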

How the data were processed

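Polyadenylated RNA of the VP of 30 mice, 5 per group, was sequenced as stranded paired-end libraries. Per the labels and the study's methods, the authors aligned reads with TopHat2 to GRCm38.p6 and deposited HTSeq read counts per Ensembl gene, with pairs of several alignments set aside; the annotation release is not given in the sources used here. The counts were used as deposited, without the rows that name no gene (pairs without a feature, 6.67% to 12.22%, and pairs not aligned uniquely, 15.98% to 20.26%). R 4.3.3, edgeR 4.0.16 (TMM scaling, low-count filter, quasi-likelihood test) and DESeq2 1.42.0 as an alternative were run over all genes, with Benjamini-Hochberg adjustment over all genes and a threshold of 0.05. Genes tested numbered 15873 at 12 weeks, 16218 at 32 weeks and 16605 across times, and all 39 members were among them. The diets were compared within each time with the 3 groups of that time in one fit, and times and interactions in a fit of all 6 groups. CPM used TMM-adjusted library totals, and log2 CPM has a prior count of 2. TPM used gene lengths from an annotation of the same build.

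Nothing in the labels says whether mice shared a litter, cage or day, so p-values measure the spread between these mice. Replicate numbers name mice here, and the labels do not say whether they mark anything shared. The fits were tested on simulated counts with known changes, for 2 comparisons. For PF against SO at 12 weeks edgeR called 10 and DESeq2 30 of 15673 unchanged genes. For SO mice with time they called 8 and 17 of 16405. The counts were drawn independently for each gene and mouse, so they do not cover mice that stand apart or genes that vary together.

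Members and gene lists were chosen with earlier results of these data known. All 39 members are accounted for. Those given in full are, per comparison, up to 8 called members by smallest p, or the 5 with the smallest p where fewer than 3 were called, and always Irf7, Irf1, Stat2, Ifih1, Isg15, Ifit1, Oas2, Mx1, Rsad2, Bst2, Gbp2 and Irgm1. Up to 4 genes of each other list are named by smallest p. Mice singled out by their levels were chosen after their values were seen. Alternatives were another scaling, no filter, the replicate number as a block, fewer or more groups in the fit, DESeq2 and leaving out each mouse. Results on 1 list of signalling genes are not reported here.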

Additional observations from a re-analysis of the deposited data

Results flagged for a closer look

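The score and 12 members chosen for their roles were checked by Dixon's criterion in each group of 5 mice. It marks a highest or lowest mouse far from the other 4. Chance meets it in about 1 of 20 groups if values are normally distributed. Members were checked in CPM and not on a log scale, so that rate need not hold for them. Mouse 4 of LO at 12 weeks stood above its group in the score (5.75) and in Ifit1 (188 CPM), Isg15 (35.4 CPM), Irf7 (141 CPM), Stat2 (258 CPM), Oas2 (40.1 CPM), Mx1 (55.5 CPM), Rsad2 (59.9 CPM), Ifih1 (90.6 CPM), Gbp2 (30.6 CPM) and Irgm1 (89.7 CPM). Over all 39 members it did so for 33. The share of all genes flagged in a mouse is not given here, and the members varied together, so such flags are not independent.

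Mouse 1 of PF at 32 weeks stood apart in the score (4.90) and in Ifit1 (104 CPM), Isg15 (22.1 CPM), Irf7 (117 CPM), Bst2 (88.0 CPM) and Irgm1 (48.4 CPM), and for 19 of 39 members in all. Mouse 4 of PF at 12 weeks stood apart in Mx1 (94.9 CPM), Rsad2 (79.6 CPM) and Gbp2 (46.6 CPM), and for 7 of 39 members. Mouse 4 of SO at 32 weeks did so in Gbp2 (36 CPM), and mouse 1 of SO at 12 weeks in Irf1 (55.4 CPM) and Stat2 (134 CPM).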

How the results depend on the processing

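The 16 members called in SO mice at 32 against 12 weeks became 30 with only these 2 groups in the fit, and ranged from 1 to 18 when each mouse was left out in turn. The count was 16 with RLE size factors, 11 with no filter, 24 by DESeq2 and 18 with the mice numbered 2 to 5 only, an alternative chosen after seeing the data. Of all genes, 5.11%, 2.61%, 6.16% and 5.77% were called higher in these fits, in the same order. With no filter 26749 genes were tested. The replicate number as a block gave 15, where 5.35% of all genes were called higher, and changed no other count of members called. Same-numbered mice of different groups had a mean correlation of deviations of 0.0559 at 12 weeks and 0.132 at 32 weeks, with a lowest value of -0.403. Mice of different numbers had lower means, -0.0137 at 12 weeks and -0.0291 at 32 weeks. The labels do not say whether the numbers pair the mice, and this was not tested. In LO mice with time, 0 members were called, and 0 to 4 when each mouse was left out. With the mice numbered 2 to 5 only, 1 member was called, Isg20, which was lower at 32 weeks. In that fit 1.66% of all genes were called higher, and the share called lower is not given here. For PF against SO changing with time, DESeq2 called 2 members where edgeR called 0. Iigp1 in PF against LO at 12 weeks had a log2 fold change of 0.75, which was -0.0927 without mouse 4 of PF and ranged from there to 1.37 over the mice left out. Leaving mouse 4 of LO at 12 weeks and mouse 1 of PF at 32 weeks out of the correlations was also chosen after seeing the data. Over all genes, DESeq2 called 225 for PF against SO and 76 for PF against LO at 12 weeks and at 32 weeks 109 for PF against SO, 72 for PF against LO and 6 for LO against SO. It called 44 for PF against SO and 5 for PF against LO changing with time. By edgeR each of these counts was 0. DESeq2 called 52 in PF and 1059 in LO mice with time, against 5 and 448 by edgeR, and 1497 against 1073 in SO mice. With only the 2 groups compared, edgeR called 57 in LO mice with time. Over the mice left out, edgeR called 226 to 1556 genes in SO and 47 to 1043 in LO mice with time. The cause of these shifts was not tested. The other comparisons had 0 members called under each alternative run. With 5 mice per group, single mice decided counts of calls. Low members such as Oas3, with a median of 51 counts, rest on few reads.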
